A study of Homo sapiens with 6 samples.

Results

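The solute carrier (SLC) genes encode membrane proteins that move amino acids, sugars, nucleosides, ions, metals, vitamins and lipids across the plasma membrane or the membranes of organelles. The genes described here are the SLC rows outside SLC25, the family of mitochondrial inner membrane carriers, whose mean over the 6 libraries was at least 50 normalized counts, a read count divided by one scaling factor per library. Members were thus chosen by their name and their mean level, and this rule gave 154 members out of 26364 genes and out of 340 SLC rows outside SLC25 of any level. Because the mean that chose them includes both groups, a gene could enter through the group in which it was high: 4 members (SLC26A11, SLC22A18AS, SLC22A23 and SLC14A1) had a DMSO mean under 50, and 3 (SLC35G1, SLC22A16 and SLC27A2) had a 22d mean under 50. Counts over the members are therefore a description. Of the 154, 146 encode carriers or their subunits and 8 share only the name, as pseudogenes, antisense or opposite-strand genes, adaptors or regulators.

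Many carriers are secondary transporters: they spend a sodium or proton gradient to concentrate a solute, and others are exchangers that swap one solute for another. Amino acid exchangers often work as a pair, a light chain that carries the substrate and a heavy chain that brings it to the cell surface. Proliferating leukaemia cells are known to draw on amino acid, nucleoside and folate carriers, some of which also admit drugs such as cytarabine and methotrexate.

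All 6 RNA-seq libraries come from MV4-11, an established line of human acute myeloid leukaemia cells that carries FLT3-ITD, an internal tandem duplication of the receptor tyrosine kinase gene FLT3. The 3 control libraries are from cells given the vehicle DMSO, and the 3 treated libraries are from cells given 22d, known as an inhibitor of the deacetylase HDAC8, at 10 nM. Cells of both groups were harvested after 18 hours, so each group is one line at 1 dose and 1 time. The labels do not say whether the libraries of a group came from separate cultures, and the p-values then measure no more than the spread among the 6 libraries, part of which could be technical.

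The libraries held 19995430 to 23749257 reads in genes, of which the members took 0.997% to 1.16%. Reads fell in 19285 genes in 22d replicate 3, against 16807 and 17055 in 22d replicates 1 and 2. With DMSO they fell in 16268 to 16439 genes. Of 10 myeloid markers, 8 had a mean of at least 10, with summed levels of 63332 to 80955 normalized counts with DMSO and 38165 to 49113 with 22d; CSF2RA was listed at 0. The single myeloid markers went both ways. LYZ, which weighs heavily in the sum, had 56489, 38415 and 39546 with DMSO and 11407, 21870 and 16595 with 22d. MPO and CD14 were also lower in every 22d library. FLT3, CSF1R, PTPRC and ITGAM were higher in every 22d library, and CD33 and SPI1 overlapped. Marker sums of other cell types were low. T cell and erythroid markers summed to at most 1.68 in any library, fibroblast markers to at most 28.5, epithelial markers to at most 192 and B cell markers to at most 171, with CD3D, CD2, COL1A2 and MS4A1 at 0. Over all genes the 22d libraries summed to 19620408 to 19950228 normalized counts and the DMSO libraries to 21934364 to 24153264, so a scaling by library totals places 22d values higher. In bulk RNA, fewer cells of a type and less RNA per cell cannot be told apart.

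With limma on log2(normalized count + 1), 97 of the 154 members passed a Benjamini-Hochberg adjusted p of 0.05 over the 13297 genes tested and are referred to as called, 55 higher and 42 lower with 22d. Of all genes tested, 58.0% were called, 28.5% higher and 29.6% lower, and of the 11255 with a mean of at least 50, 61.6% were called, 28.7% higher and 32.9% lower. The share of members called, 63.0%, lies near these backgrounds. The median log2 fold change of the members was 0.10, against 0.01 for all genes tested and -0.03 for those with a mean of at least 50. Changes of at least 2-fold were called in 16 members upward and 16 downward, where the background is 9.90% upward and 9.87% downward over all genes tested, and 7.63% and 9.99% over those with a mean of at least 50. In 57 members every 22d library lay above every DMSO library and in 43 every one lay below, against 32.1% and 33.3% of all genes tested and 31.9% and 36.4% of those with a mean of at least 50. Scaling by library totals, which moves the median of all genes tested to 0.22, gave 78 members higher and 37 lower (67.8% of calls higher, against 56.7%). Leaving out 1 library at a time gave 43 to 50 higher and 38 to 42 lower; 74 of the 97 calls passed in each of these 6 fits. Throughout, a fold change with its standard error (SE) is limma's, on the log2(normalized count + 1) scale, 22d minus DMSO.

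**Figure D1:**
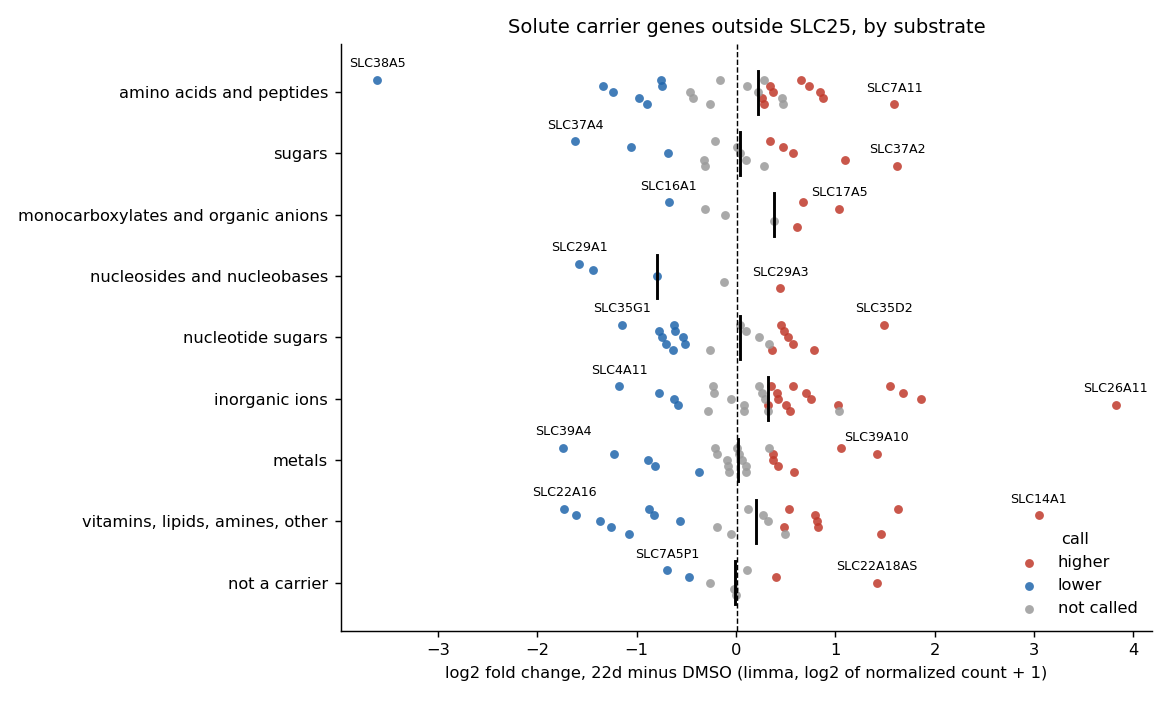
Log2 fold change (22d minus DMSO) of each of the 154 members, by substrate; red points were called higher, blue lower and grey not called, black bars are class medians and the dashed line is the median of all genes tested. The class of nucleosides and nucleobases has the lowest median, -0.80 over 5 members, which is the value of the vesicular nucleotide carrier SLC17A9. That median is -0.58 with quantile normalization and -0.57 with library totals. The farthest members are SLC38A5 (-3.61) and SLC26A11 (3.82).

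Calls by substrate class can be set beside 28.7% higher and 32.9% lower among all genes tested with a mean of at least 50. Among 25 amino acid and peptide carriers 9 rose and 7 fell, among 15 sugar carriers 5 rose and 3 fell, and among 29 carriers of inorganic ions 14 rose and 4 fell. Of 5 nucleoside and nucleobase carriers 1 rose and 3 fell. Of 22 metal carriers 6 rose and 5 fell, of 21 members of the SLC35 nucleotide sugar family 7 rose and 9 fell, and of 7 carriers of monocarboxylates and organic anions 3 rose and 1 fell. The 22 carriers of vitamins, lipids, amines and other small molecules held 8 risers and 8 fallers. The shares called higher and lower were 36% and 28% for amino acids, 33.3% and 20% for sugars and 27.3% and 22.7% for metals. They were 33.3% and 42.9% for nucleotide sugars, and 36.4% and 36.4% for vitamins, lipids, amines and other small molecules. For inorganic ions they were 48.3% and 13.8%, for nucleosides 20% and 60%, and for monocarboxylates and organic anions 42.9% and 14.3%. Differences between classes were not tested.

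Summed levels weigh the abundant members. The nucleoside class sum was 15611 ± 866 normalized counts with DMSO and 6712 ± 1058 with 22d (mean ± SD, n = 3), a ratio of 0.430, and SLC43A3 alone made up 51.9% of the DMSO sum. For amino acids the sums were 73991 ± 8948 and 50621 ± 5674, a ratio of 0.684. The metal class gave 30733 ± 1393 and 23160 ± 149, a ratio of 0.754. These 3 sums were lower in every 22d library than in every DMSO library. So were the nucleotide sugar sum, at a ratio of 0.906, and the sum of members that are not carriers, at 0.767. The ratio was 1.06 for inorganic ions and 1.00 for sugars. The sum over all genes was itself lower in every 22d library than in every DMSO library. As a share of all reads, which does not depend on the scaling factors, the nucleoside and nucleobase class went from 0.0675% ± 0.0020 to 0.0338% ± 0.0051. Amino acid carriers went from 0.319% ± 0.027 to 0.255% ± 0.026, and metal carriers from 0.133% ± 0.005 to 0.117% ± 0.0005. Shares were higher with 22d for ion carriers, 0.116% ± 0.004 against 0.144% ± 0.008, and for sugar carriers, 0.0635% ± 0.0024 against 0.0741% ± 0.0048. The class of vitamins, lipids, amines and other small molecules went from 0.158% ± 0.001 to 0.176% ± 0.003. The nucleotide sugar share went from 0.0936% ± 0.0029 to 0.0989% ± 0.0014.

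The DNA before the start of some falling members is shown because it held E-boxes, the CACGTG motif bound by MYC and related factors. Of the falling amino acid carriers, SLC38A5 and SLC7A5, which fell most, and SLC43A1 held an E-box, while SLC7A1 and SLC3A2 did not. SLC29A1, with the smallest p-value in the nucleoside and nucleobase class, held an E-box too. RefSeq promoters (GRCh38.p14, 250 bases before to 50 after the start) were found for 128 of the 154 members. Of 32 falling members with a promoter, 7 held CACGTG on either strand (21.9%), against 3 of 45 rising members (6.67%), 4 of 51 not called (7.84%) and 7.43% of all 27305 promoters. The 7 stretches of 80 bases are each printed 5′ to 3′ along the gene's strand, with the E-box in capitals. They lie at chrX:48470424-48470503 on the minus strand for SLC38A5, chr16:87869595-87869674 on the minus strand for SLC7A5, chr11:57515772-57515851 on the minus strand for SLC43A1, chr2:112645696-112645775 on the plus strand for SLC20A1, chr6:44219365-44219444 on the plus strand for SLC29A1, chr5:140564648-140564727 on the plus strand for SLC35A4 and chr5:132294144-132294223 on the plus strand for SLC22A4.
SLC38A5: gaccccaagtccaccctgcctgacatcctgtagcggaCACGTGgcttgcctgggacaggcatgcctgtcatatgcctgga
SLC7A5: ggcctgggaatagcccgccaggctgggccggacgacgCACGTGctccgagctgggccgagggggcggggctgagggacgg
SLC43A1: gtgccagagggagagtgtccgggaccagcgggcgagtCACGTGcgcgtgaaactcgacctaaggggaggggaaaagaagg
SLC20A1: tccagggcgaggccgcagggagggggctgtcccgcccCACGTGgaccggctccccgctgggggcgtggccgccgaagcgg
SLC29A1: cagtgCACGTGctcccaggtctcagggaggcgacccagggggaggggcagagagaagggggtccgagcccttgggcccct
SLC35A4: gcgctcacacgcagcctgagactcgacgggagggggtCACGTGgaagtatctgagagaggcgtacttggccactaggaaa
SLC22A4: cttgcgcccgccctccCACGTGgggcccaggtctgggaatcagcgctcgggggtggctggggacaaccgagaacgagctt
A match is a run of letters, not a bound site, and binding was not measured. The rising members with an E-box were SLC12A7, SLC9A5 and SLC2A13. For TGATGNAA, the letters of elements bound by C/EBP and ATF factors, 4 falling members had a match on either strand (SLC7A1, SLC3A2, SLC2A5 and SLC27A5), 12.5% of 32, against 0 of 45 rising members and 3.67% of all promoters. For TGACNNNGC, the core of the antioxidant response element, the share was 25.0% among falling members, 13.3% among rising members and 13.6% among all promoters. For TGCACNC or TGCGCNC, the core of the metal response element, 18 of 45 rising members had a match (40%), against 37.5% of falling members and 29.35% of all promoters. Matches of different motifs among these 4 shared bases in 0 member promoters, and the shares are counts without a test.

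Among amino acid carriers, SLC38A5, SLC7A5, SLC7A1, SLC1A5 and SLC3A2 had the largest falls. SLC38A5 (chrX:48458537-48470256, minus strand, GENCODE 29 on GRCh38), a sodium-coupled carrier of glutamine, serine and glycine, had 1845, 1616 and 1357 normalized counts under DMSO and 69.4, 196 and 159 under 22d. All 22d libraries lay far below all DMSO libraries, and 22d replicate 1 was the lowest. The means were 1606 ± 244 and 141 ± 65.1 (SD, n = 3), 11.4-fold lower with 22d, and the fold change was -3.61 (SE 0.28, limma adjusted p = 4.8e-07). The authors' deposited table gives -3.07, and DESeq2 on the recovered read counts gave -3.50.

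The exchanger pair of the light chain SLC7A5 (LAT1, large neutral amino acids) and the heavy chain SLC3A2 fell together in all 3 libraries with 22d. SLC7A5 (chr16:87830023-87869488, minus strand) had 14627, 22816 and 16108 normalized counts under DMSO and 3997, 8409 and 9942 under 22d. The groups did not overlap, but both spread widely, and the fold change was -1.34 (SE 0.26, limma adjusted p = 0.00079). SLC3A2 had 5056, 6432 and 5412 with DMSO and a narrow 3084, 3010 and 2965 with 22d, a fold change of -0.89 (SE 0.11, limma adjusted p = 1.8e-05). The pseudogenes SLC7A5P1 and SLC7A5P2 resemble SLC7A5 in sequence, so how reads were divided among these 3 is uncertain. SLC7A5P1 fell by 0.69 (limma adjusted p = 0.02), with groups that overlapped and a call lost without 22d replicate 1 (adjusted p = 0.072) or DMSO replicate 2 (0.1) and with library totals (0.091), and SLC7A5P2 had a fold change of 0.11 (adjusted p = 0.54).

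SLC1A5 (ASCT2), which exchanges glutamine and other neutral amino acids, had 11125, 14467 and 11361 normalized counts under DMSO and 6223, 6144 and 6281 under 22d. Its 22d libraries differed by little and lay below all controls, with a fold change of -0.98 (SE 0.11, limma adjusted p = 1.3e-05). SLC7A1, the cationic carrier for arginine and lysine, had 6194, 6617 and 6283 with DMSO and 2294, 2877 and 2940 with 22d, a fold change of -1.24 (SE 0.11, limma adjusted p = 1.6e-06). SLC43A1 (LAT3), a leucine and phenylalanine carrier, and SLC36A4, a proline and tryptophan carrier, also fell, by 0.76 and 0.75 on the log2 scale.

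SLC38A2, SLC38A1 and SLC7A6 were not called. SLC38A2, a glutamine carrier like SLC38A1, had 1997, 1867 and 1894 normalized counts under DMSO and 2141, 2250 and 1839 under 22d, overlapping groups with a fold change of 0.11 (limma adjusted p = 0.41). SLC38A1 had 427, 370 and 414 with DMSO and 192, 384 and 335 with 22d, a fold change of -0.47 that missed the threshold (limma adjusted p = 0.074). Both moved past it under other settings: SLC38A1 without 22d replicate 2 (-0.67, adjusted p = 0.016), and SLC38A2 with quantile normalization (0.34, 0.017) or library totals (0.33, 0.02). SLC7A6, a light chain that exchanges arginine for glutamine, had 1768, 1660 and 1791 with DMSO and 1512, 1576 and 1592 with 22d; the groups did not overlap, yet the fold change of -0.16 was not called (limma adjusted p = 0.19). It shares 3371 exon bases with SLC7A6OS on the opposite strand, and with no stated strand setting their reads cannot be told apart.

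The cystine-glutamate exchanger light chain SLC7A11, which supplies cysteine for glutathione, was the amino acid carrier with the largest rise. It had 108, 109 and 112 normalized counts under DMSO and 371, 390 and 254 under 22d. The controls were nearly equal and every 22d library lay at least 2-fold above them, with means of 110 ± 2.06 and 338 ± 73.7 and a fold change of 1.59 (SE 0.18, limma adjusted p = 8.7e-06). SLC7A7, a light chain for cationic and neutral amino acids, rose by 0.87, and SLC43A2 (LAT4) rose by 0.73 from a spread of 826 to 1594 with DMSO to 1973 to 2067 with 22d.

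In the subgroup of lysosomal and peptide carriers, made up of SLC15 and SLC36 members, 4 of 5 rose, with SLC36A4 as the one that fell. Of these 4 rises, 2 were called with each library left out in turn. Lysosomal carriers placed in other groups, such as SLC2A6, are not in this count. SLC15A3, a lysosomal carrier of histidine and small peptides, had 645, 809 and 476 normalized counts under DMSO and 1321, 929 and 1171 under 22d, a fold change of 0.84 (SE 0.18, limma adjusted p = 0.0014). SLC15A2 rose by 0.65, and SLC15A4 (0.37) and SLC36A1 (0.27) rose by less. All 3 SLC15 members were called higher, also under quantile normalization and library totals. The lysosomal arginine sensor SLC38A9 had 259, 272 and 291 with DMSO and 380, 346 and 319 with 22d, a fold change of 0.34 (limma adjusted p = 0.044), and SLC1A4, a serine and alanine exchanger, had 4133, 4192 and 3827 against 4388, 4956 and 5478, a fold change of 0.28 (limma adjusted p = 0.039). Neither group pair overlapped.

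These smaller rises depended on single libraries. Without DMSO replicate 1, 5 amino acid carriers in place of 9 were called higher, and the calls of SLC1A4 (limma adjusted p = 0.082), SLC38A9 (0.13), SLC36A1 (0.067) and SLC15A4 (0.1) were lost. SLC1A4 was also lost without DMSO replicate 3 (0.11), 22d replicate 2 (0.095) or 22d replicate 3 (0.18). SLC38A9 was also lost without DMSO replicate 2 (0.085), 22d replicate 1 (0.11) or 22d replicate 2 (0.098), with quantile normalization (0.072) and in the authors' deposited table (0.065). With no filter on low values SLC1A4 (0.055) and SLC38A9 (0.064) were not called. SLC36A1 was lost without any 1 of the 6 libraries (0.053 to 0.12), and SLC15A4 without any but 22d replicate 2 (0.051 to 0.12). Under scaling by library totals 14 amino acid carriers were called higher and 7 lower.

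**Figure D2:**
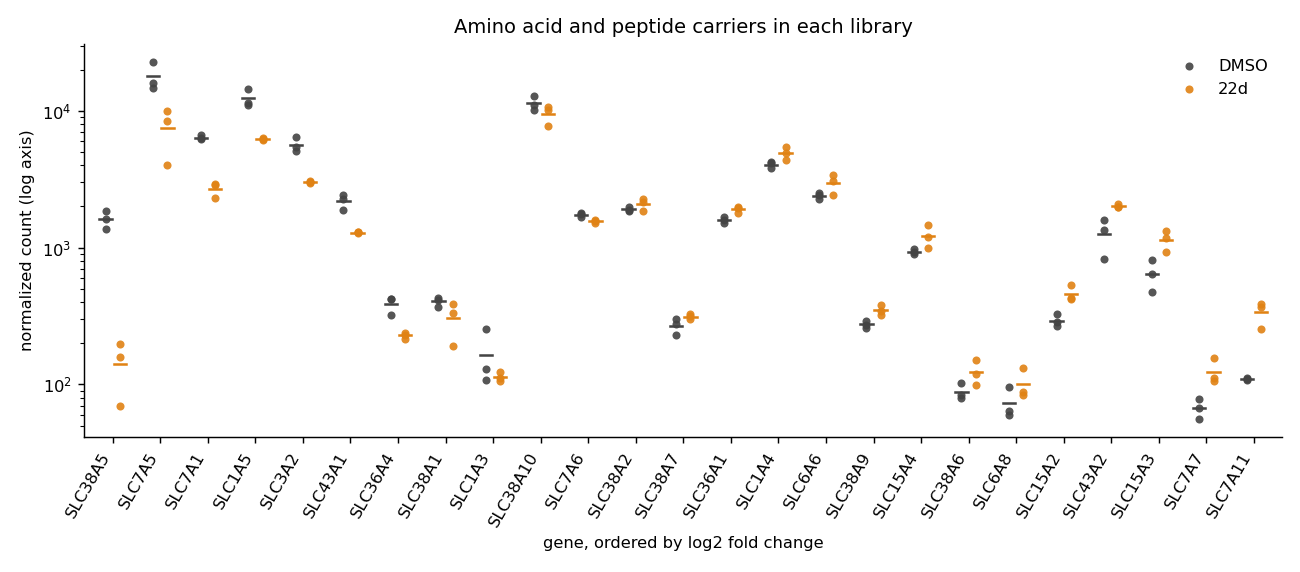
Normalized counts (log axis) of the 25 amino acid and peptide carriers in each of the 3 DMSO (grey) and 3 22d (orange) libraries, with a line at each group mean, ordered by fold change. SLC38A5, SLC7A5, SLC7A1, SLC1A5 and SLC3A2 at the left lie below the controls in every 22d library, and SLC7A11 at the right lies above them.

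Sugar carriers moved both ways, and the one with the most normalized counts was not called. SLC2A1 (GLUT1), the widespread glucose carrier, had 3957, 3949 and 3581 normalized counts under DMSO and 3130, 3887 and 4659 under 22d, overlapping groups with a fold change of 0.01 (SE 0.13, limma adjusted p = 0.97). Its sign turned when 22d replicate 2 (-0.0021), 22d replicate 3 (-0.13) or DMSO replicate 3 (-0.04) was left out. The 22d libraries spread on both sides of the controls.

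The larger changes fell on sugar phosphate exchangers of the endoplasmic reticulum. SLC37A4, the glucose-6-phosphate translocase that feeds glucose release, had 1114, 996 and 992 normalized counts under DMSO and 324, 332 and 353 under 22d. The 22d values were tight, about a 3.08-fold drop of the mean, with a fold change of -1.62 (SE 0.12, limma adjusted p = 2.7e-07). SLC37A2, a related exchanger known in macrophages, went the other way, from 582, 477 and 430 to 1610, 1316 and 1662, a fold change of 1.63 (SE 0.14, limma adjusted p = 9.5e-07). SLC37A4 shares 359 exon bases with TRAPPC4 on the opposite strand, which had a fold change of -0.67. The third member of the family, SLC37A1, rose by 0.34, a call lost without 22d replicate 1 (limma adjusted p = 0.063), 22d replicate 3 (0.091), DMSO replicate 1 (0.12) or DMSO replicate 3 (0.071).

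Among hexose carriers, SLC2A11 rose from 158, 210 and 250 normalized counts to 481, 426 and 400, a fold change of 1.10 (SE 0.17, limma adjusted p = 0.00013). The fructose carrier SLC2A5 fell from 886, 865 and 874 to 390, 651 and 641, a fold change of -0.68 (SE 0.17, limma adjusted p = 0.0043). Neither pair of groups overlapped. SLC2A6, a lysosomal member, had 1766, 2440 and 998 with DMSO and 496, 1436 and 671 with 22d, which overlap. Its fold change of -1.06 (limma adjusted p = 0.017) was not past the threshold in the authors' deposited table (-0.79, adjusted p = 0.16) or by DESeq2 (0.14), nor without 22d replicate 1 (0.073) or DMSO replicate 2 (0.093). SLC2A3 (GLUT3) was called higher by 0.47 with overlapping groups, a call lost without 22d replicate 2 (limma adjusted p = 0.11), 22d replicate 3 (0.12), DMSO replicate 2 (0.066) or DMSO replicate 3 (0.12) and with quantile normalization (0.056), and its near-identical copy SLC2A14 makes the division of reads uncertain. The proton-coupled inositol carrier SLC2A13 rose by 0.57, a call lost without DMSO replicate 2 (limma adjusted p = 0.057). Without 22d replicate 3, DMSO replicate 2 or DMSO replicate 3, 3 sugar carriers in place of 5 were called higher, and under library totals 8 were.

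Carriers of lactate and pyruvate differed by member. SLC16A3 (MCT4), known for lactate export, made up 79.5% of the monocarboxylate and organic anion class with DMSO and had 11571, 11798 and 10059 normalized counts there and 8792, 10293 and 11977 with 22d, an overlap with a fold change of -0.11 (limma adjusted p = 0.45) whose sign turned under quantile normalization (0.21) and library totals (0.11). SLC16A1 (MCT1), which carries lactate both ways, fell from a tight 1270, 1295 and 1319 to 638, 997 and 832, a fold change of -0.68 (SE 0.15, limma adjusted p = 0.0014). SLC16A5 rose from 284, 280 and 313 to 462, 486 and 456, a fold change of 0.68 (SE 0.13, limma adjusted p = 0.00049). Both groups of SLC16A5 were narrow and apart. The lysosomal sialic acid exporter SLC17A5 rose by 1.04 (SE 0.25, limma adjusted p = 0.0031), and SLC22A20 by 0.62 (limma adjusted p = 0.027), a call lost without 22d replicate 2 (0.085), 22d replicate 3 (0.13), DMSO replicate 2 (0.055) or DMSO replicate 3 (0.064), with quantile normalization (0.13) and with no filter on low values (0.055).

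Of 5 nucleoside and nucleobase carriers, SLC29A1, SLC43A3 and SLC17A9 fell. SLC29A1 (ENT1; chr6:44219505-44234151, plus strand), the equilibrative carrier through which nucleosides and the drug cytarabine enter cells, had 4328, 4341 and 4198 normalized counts under DMSO and 1399, 1301 and 1628 under 22d. Both groups were tight and did not overlap; the means were 4289 ± 78.9 and 1443 ± 167, 2.97-fold lower with 22d, and the fold change was -1.58 (SE 0.11, limma adjusted p = 1.9e-07). SLC43A3, a purine nucleobase carrier, had 8664, 8172 and 7460 with DMSO and 2294, 3417 and 3380 with 22d, a fold change of -1.44 (SE 0.14, limma adjusted p = 3.3e-06). SLC17A9, which loads nucleotides into vesicles, fell from 2744, 2907 and 2489 to 1126, 1730 and 1948, a fold change of -0.80 (SE 0.17, limma adjusted p = 0.0012). All 3 falls were called with each library left out and under quantile normalization and library totals.

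The other two carriers of this class did not fall. The lysosomal SLC29A3 (ENT3) had 346, 457 and 383 normalized counts under DMSO and 636, 444 and 540 under 22d. These groups overlapped, and the rise of 0.44 (limma adjusted p = 0.027) was lost without 22d replicate 1 (0.091), 22d replicate 3 (0.062), DMSO replicate 1 (0.11) or DMSO replicate 3 (0.065). The concentrative carrier SLC28A3 had a fold change of -0.12 (limma adjusted p = 0.75). SLC29A2, the other plasma membrane equilibrative carrier, had a mean of 36.1 and is not a member.

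Members of the SLC35 family, which bring nucleotide sugars and related molecules into the endoplasmic reticulum and Golgi for glycosylation and sulfation, changed modestly and in both directions. SLC35B1, an ATP-ADP exchanger of the endoplasmic reticulum, fell from 1164, 1113 and 1079 normalized counts to 627, 653 and 679, a fold change of -0.78 (SE 0.11, limma adjusted p = 5.2e-05). The Golgi carriers of UDP-galactose (SLC35A2, -0.62), GDP-fucose (SLC35C1, -0.54) and UDP-xylose (SLC35B4, -0.71) fell as well. SLC35D2, a carrier of UDP-N-acetylglucosamine, rose from 150, 144 and 199 to 527, 421 and 436, a fold change of 1.49 (SE 0.16, limma adjusted p = 6.8e-06), and the CMP-sialic acid carrier SLC35A1 rose by 0.52.

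The sulfate donor PAPS has a pair of carriers in this family, and they moved in opposite directions: SLC35B2 fell by 0.63 (limma adjusted p = 0.00084), while SLC35B3 rose by 0.58 (limma adjusted p = 0.0025), from 294, 258 and 321 normalized counts to 426, 457 and 416. SLC35A5 rose by 0.79 and SLC35F2 fell by 0.75. SLC35G1 had 76.2, 71.4 and 72.4 with DMSO and 15.6, 66.6 and 32.7 with 22d, so its fold change of -1.14 (limma adjusted p = 0.022) rests on uneven 22d values, and the call was lost without 22d replicate 1 (-0.64, adjusted p = 0.076), DMSO replicate 1 (0.053), DMSO replicate 2 (0.054) or DMSO replicate 3 (0.054), with library totals (0.053) and by edgeR (0.054). The near-identical SLC35E2 and SLC35E2B rose by 0.45 and 0.37, and the division of reads between them is uncertain; the call of SLC35E2B was lost without DMSO replicate 3 (limma adjusted p = 0.055). SLC35A4 fell by 0.62, while APBB3, which shares 234 exon bases with it on the opposite strand, had a fold change of 1.18.

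Carriers of inorganic ions were more often called higher (14 of 29, 48.3%) than lower (4, 13.8%). Of all genes tested with a mean of at least 50, 28.7% were called higher and 32.9% lower. Quantile normalization gave 14 and 4, and scaling by library totals gave 19 and 3. With each library left out in turn, 10 of the higher calls and 3 of the lower calls passed in all 6 fits. SLC26A11 (chr17:80219699-80253500, plus strand), a sulfate and chloride carrier, had 7.97, 18.6 and 29.6 normalized counts under DMSO and 406, 156 and 238 under 22d. It had the largest rise of all members, 14.2-fold between the means, with a wide spread in both groups, the highest value in 22d replicate 1, and a fold change of 3.82 (SE 0.41, limma adjusted p = 6e-06). The authors' deposited table gives 2.94, and DESeq2 on the recovered read counts gave 3.84.

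The subgroup of carriers of bicarbonate, which set intracellular pH, and of borate held 3 risers and 1 faller among 6. SLC4A8, a sodium-driven chloride-bicarbonate exchanger, had 50.1, 62.1 and 63.6 normalized counts under DMSO and 198, 201 and 248 under 22d, a fold change of 1.86 (SE 0.19, limma adjusted p = 3.3e-06). SLC4A3, a chloride-bicarbonate exchanger, rose from 81.9, 87.9 and 120 to 241, 319 and 285, a fold change of 1.55 (SE 0.19, limma adjusted p = 1.5e-05). Neither overlapped its controls. SLC4A11 fell from 608, 678 and 689 to 195, 366 and 345, a fold change of -1.17 (SE 0.20, limma adjusted p = 0.00026). SLC4A7, a sodium-bicarbonate carrier, had a fold change of 0.08 (limma adjusted p = 0.65). The third riser, SLC4A5 (0.50), shares 1324 exon bases with MTHFD2 on the opposite strand, and its call was lost without 22d replicate 2 (limma adjusted p = 0.11), 22d replicate 3 (0.05), DMSO replicate 1 (0.063) or DMSO replicate 2 (0.12).

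Phosphate carriers split. The housekeeping carriers SLC20A1 (2180, 1740 and 1787 normalized counts with DMSO, 1098, 1251 and 981 with 22d) and SLC20A2 fell by 0.78 (SE 0.13, limma adjusted p = 0.00018) and 0.58 (SE 0.12, limma adjusted p = 0.001). SLC34A3, known from the kidney, rose from 67.1, 101 and 84.5 to 251, 250 and 310, a fold change of 1.68 (SE 0.19, limma adjusted p = 8.2e-06). No 22d library overlapped the controls for any of these 3 genes.

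Of 6 sodium-proton exchangers 3 rose and 1 fell (3 and 0 with library totals). SLC9A3 rose by 1.03 (limma adjusted p = 0.0021) and SLC9A5 by 0.76. SLC9A3 shares 1876 exon bases with PP7080 on the same strand, which had a fold change of -0.29 (limma adjusted p = 0.061). SLC9B2 fell by 0.63, a call lost without 22d replicate 1 (limma adjusted p = 0.09), DMSO replicate 1 (0.066) or DMSO replicate 3 (0.11) and with library totals (0.14). Of 6 SLC12 members 4 rose and 0 fell, also with quantile normalization and library totals; among the risers were SLC12A3 (0.54) and the potassium-chloride carriers SLC12A7 (0.42) and SLC12A4 (0.32). SLC12A7 was the only one of these 4 called with each library left out; SLC12A3 was lost without 22d replicate 3 (limma adjusted p = 0.095) or DMSO replicate 1 (0.056), and SLC12A4 without any but DMSO replicate 2 (0.057 to 0.2). The sodium-potassium-chloride carrier SLC12A2, with 229, 213 and 233 against 226, 235 and 251, had a fold change of 0.08 (limma adjusted p = 0.66) that turned to -0.03 with quantile normalization. The mitochondrial sodium-calcium exchanger SLC8B1 rose by 0.71 (limma adjusted p = 0.00019), and SLC8A1, with groups that overlapped, had 1.04 (limma adjusted p = 0.062).

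Zinc carriers form a pair of families. SLC39 proteins bring zinc into the cytosol, and of 11 members 1 rose and 5 fell (2 and 4 with quantile normalization and with library totals). SLC30 proteins mostly remove it, and of 5 members 2 rose and 0 fell. Neither of these rises was called with each library left out in turn. SLC39A4 had 4375, 3866 and 3677 normalized counts under DMSO and 807, 1460 and 1411 under 22d, lower in every 22d library and lowest in replicate 1, with a fold change of -1.74 (SE 0.18, limma adjusted p = 5.6e-06). SLC39A14, which also carries iron and manganese, had 4196, 3636 and 3568 with DMSO and 1357, 1777 and 1765 with 22d, a fold change of -1.23 (SE 0.12, limma adjusted p = 4e-06). SLC39A7, which releases zinc from the endoplasmic reticulum, fell by 0.88, SLC39A3 by 0.82 and SLC39A1 by 0.37. The groups of SLC39A1 overlapped, and its call was lost without 22d replicate 2 (limma adjusted p = 0.097), 22d replicate 3 (0.089), DMSO replicate 1 (0.077) or DMSO replicate 2 (0.078).

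SLC39A10 was the exception among the importers. It had 185, 198 and 265 normalized counts under DMSO and 642, 539 and 541 under 22d, all above the controls, with a fold change of 1.42 (SE 0.16, limma adjusted p = 8.1e-06). SLC39A8 had 827, 731 and 799 against 662, 900 and 837, a fold change of 0.02 (limma adjusted p = 0.93) whose sign turned without 22d replicate 2 (-0.08), 22d replicate 3 (-0.02) or DMSO replicate 2 (-0.04). The zinc exporter SLC30A1 had 462, 387 and 411 with DMSO and 741, 501 and 481 with 22d, a fold change of 0.43 (limma adjusted p = 0.04). Its rise did not pass without 22d replicate 1 (0.16), DMSO replicate 2 (0.12) or DMSO replicate 3 (0.087), and the call of SLC30A9 (0.38) without 22d replicate 2 (0.065), DMSO replicate 1 (0.063) or DMSO replicate 2 (0.072).

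**Figure D3:**
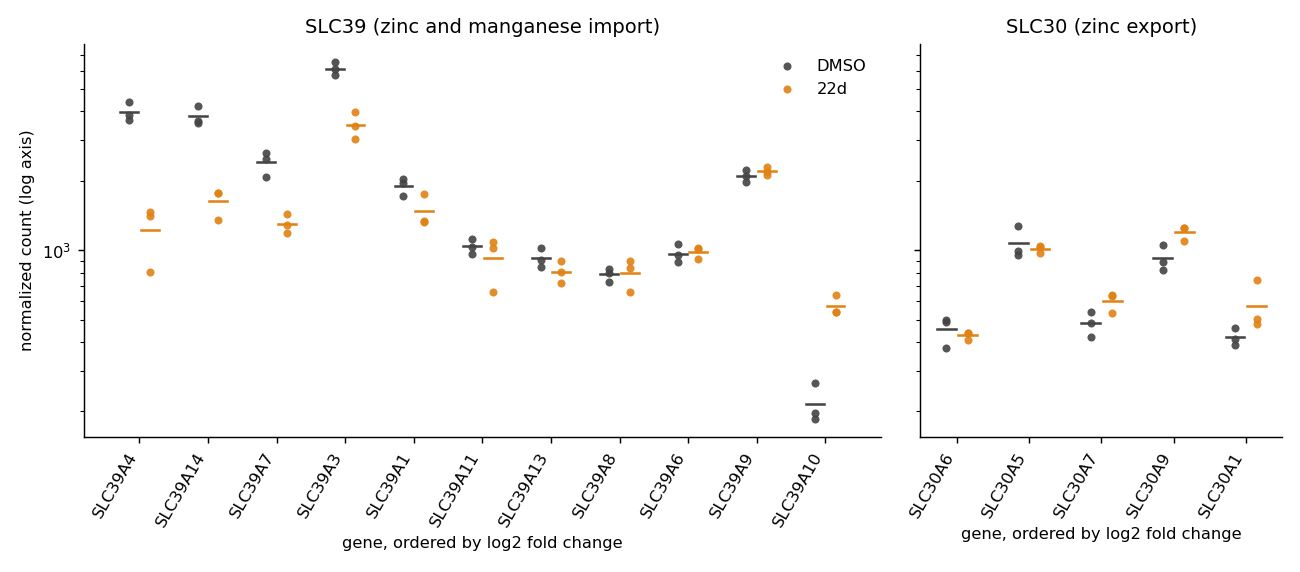
Normalized counts (log axis) of the 11 SLC39 and 5 SLC30 members in each DMSO (grey) and 22d (orange) library, with a line at each group mean, ordered by fold change within each family. The SLC39 members at the left, among them SLC39A4 and SLC39A14, lie below the controls, and SLC39A10 lies above them.

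Of the other metal carriers, the haem exporter of lysosomes SLC48A1 had 283, 357 and 397 normalized counts under DMSO and 1115, 523 and 620 under 22d. All 22d libraries lay above the controls and replicate 1 was the highest, with a fold change of 1.05 (SE 0.23, limma adjusted p = 0.0016). SLC48A1 shares 32 exon bases with HDAC7 and 74 with RAPGEF3 on the opposite strand, which had fold changes of 0.76 and 1.29. SLC31A2, of the copper carrier family, rose by 0.58 (limma adjusted p = 0.007), and the magnesium carrier SLC41A3 by 0.37, a call lost without 22d replicate 3 (limma adjusted p = 0.051) or DMSO replicate 1 (0.11). The iron carrier SLC11A2 had 762, 763 and 670 against 848, 759 and 744, a fold change of 0.10 (limma adjusted p = 0.49), which passed under library totals (0.32, adjusted p = 0.033). SLC11A1 and the iron exporter SLC40A1 had means of 30.0 and 7.42 and are not members.

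Vitamin carriers held the reduced folate carrier SLC19A1, through which methotrexate enters cells. It had 4232, 4538 and 3448 normalized counts under DMSO and 867, 1545 and 1724 under 22d, without overlap and lowest in 22d replicate 1, with means of 4073 ± 562 and 1379 ± 452 and a fold change of -1.61 (SE 0.21, limma adjusted p = 2.5e-05). SLC5A6, which carries biotin and pantothenate, fell from 2989, 2628 and 2339 to 983, 1178 and 1153, a fold change of -1.26 (SE 0.12, limma adjusted p = 2.5e-06), and the riboflavin carrier SLC52A2 fell by 0.56. The ascorbate carrier SLC23A2 rose by 0.80 (limma adjusted p = 0.00018) and the lysosomal SLC46A3 by 0.83 (limma adjusted p = 0.0037). The proton-coupled folate carrier SLC46A1 had a mean of 25.4 and is not a member.

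Of 5 SLC27 members, which take up or activate fatty acids, 3 fell and 1 rose, also under both other scalings. SLC27A2 fell from 106, 102 and 125 normalized counts to 30.3, 45.6 and 54.6, a fold change of -1.37 (SE 0.24, limma adjusted p = 0.00034), SLC27A5 fell by 1.08 and SLC27A4 by 0.87, whereas SLC27A1 rose by 0.82. The choline carrier SLC44A1, which held 39.5% of the DMSO sum of its class, had a fold change of 0.13 (limma adjusted p = 0.31). SLC44A2 rose from 68.3, 82.7 and 70.2 to 317, 189 and 205, a fold change of 1.64 (SE 0.21, limma adjusted p = 2.5e-05).

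SLC14A1, the urea carrier that bears the Kidd blood group antigens, had 11.4, 11.4 and 8.78 normalized counts under DMSO and 126, 76.7 and 84.8 under 22d. The fold change was 3.05 (SE 0.29, limma adjusted p = 2.1e-06), from a level near the bottom of the measured range. The authors' deposited table gives 2.84, and DESeq2 on the recovered read counts gave 3.19. The carnitine carrier SLC22A16 fell from 147, 130 and 113 to 40.1, 31.9 and 43.7, a fold change of -1.73 (SE 0.21, limma adjusted p = 2e-05). SLC22A18 rose by 1.46 and its antisense gene SLC22A18AS by 1.42; they share 227 exon bases, so reads of one may be counted for the other.

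Among members that are not carriers, SLC2A4RG, a transcriptional regulator named for SLC2A4, fell from 16233, 20342 and 15180 normalized counts to 11545, 11563 and 13992, a fold change of -0.47 (SE 0.13, limma adjusted p = 0.0063), which was not called under quantile normalization (limma adjusted p = 0.096) or library totals (0.052). SLC4A1AP, an adaptor protein gene, rose by 0.40 (limma adjusted p = 0.026), a call lost without 22d replicate 1 (0.087), DMSO replicate 1 (0.093) or DMSO replicate 2 (0.079). The scaffold gene SLC9A3R1 had a fold change of -0.26 (limma adjusted p = 0.15).

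Levels between genes were compared per kilobase of exon, for the 152 members with a place in GENCODE 29. After SLC2A4RG, the highest DMSO levels were those of SLC7A5 (3892 ± 951 normalized counts per kilobase), SLC1A5 (3697 ± 560), SLC9A3R1 (3264 ± 683), SLC43A3 (2799 ± 209) and SLC52A2 (2736 ± 513). Neighbours in this order lay within their SDs of each other. With 22d, SLC7A5 was 7th at 1624 ± 673, SLC1A5 5th and SLC43A3 12th, while SLC9A3R1, SLC38A10 and SLC16A3, none of them called, were 2nd to 4th. SLC38A5 moved from rank 35 (510 ± 77) to 122 (45 ± 21), SLC39A4 from 10 to 27, SLC29A1 from 12 to 25 and SLC19A1 from 18 to 52. These ranks describe the group means and were not tested.

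**Figure D4:**
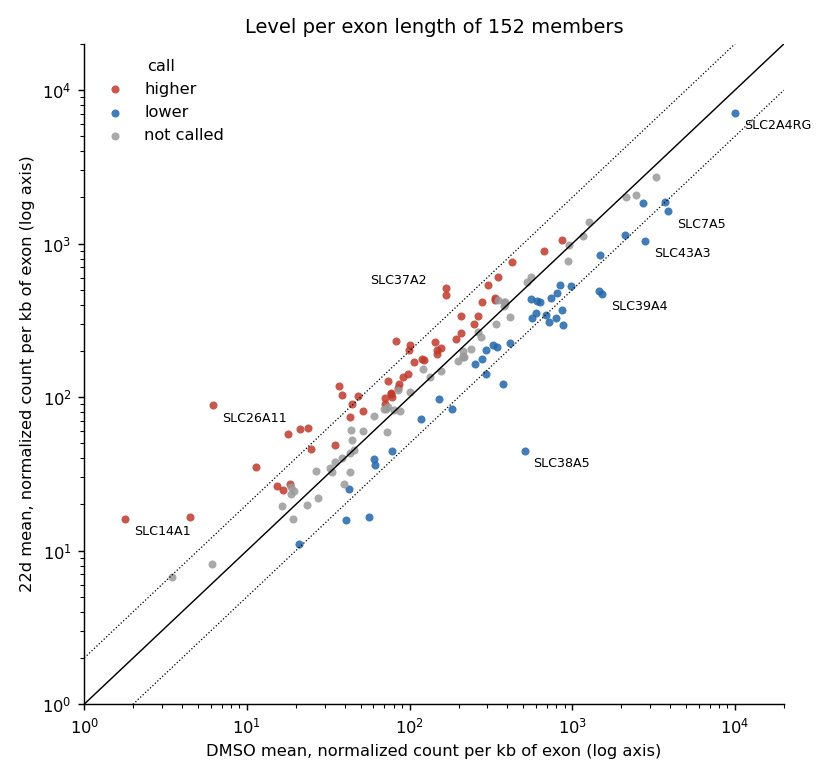
Mean normalized count per kilobase of exon with DMSO (x, log axis) and with 22d (y, log axis) for 152 members, coloured by call; the solid line marks equal levels and the dotted lines a 2-fold difference. SLC38A5 lies farthest below the line and SLC26A11 and SLC14A1 lie farthest above it.

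22d replicate 1 stood apart from the other treated libraries in its distance from DMSO. It was the 22d library farthest from the DMSO mean in 60 of the 97 called members (61.9%), 27 of the 55 that rose and 33 of the 42 that fell, against 63.2% of the 7718 called genes. Without it, 50 members were called higher and 38 lower. Leaving it out moved the log2 fold change by over 1.5 times in SLC35G1 (-1.14 to -0.64), SLC9B2 (-0.63 to -0.41), SLC30A1 (0.43 to 0.23) and SLC15A4 (0.37 to 0.23), whose calls were lost, and in SLC2A5 (-0.68 to -0.44), whose call held. Leaving out DMSO replicate 1 moved that of SLC43A2 from 0.73 to 0.46, with its call held. Among called members, no other log2 fold change moved by over 1.5 times with any 1 library left out. Taken as a difference, SLC2A6 moved by more than some of these, from -1.06 to -0.73 without 22d replicate 1. Whether a property of that library has a part in the members' values was not tested.

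**Figure D5:**
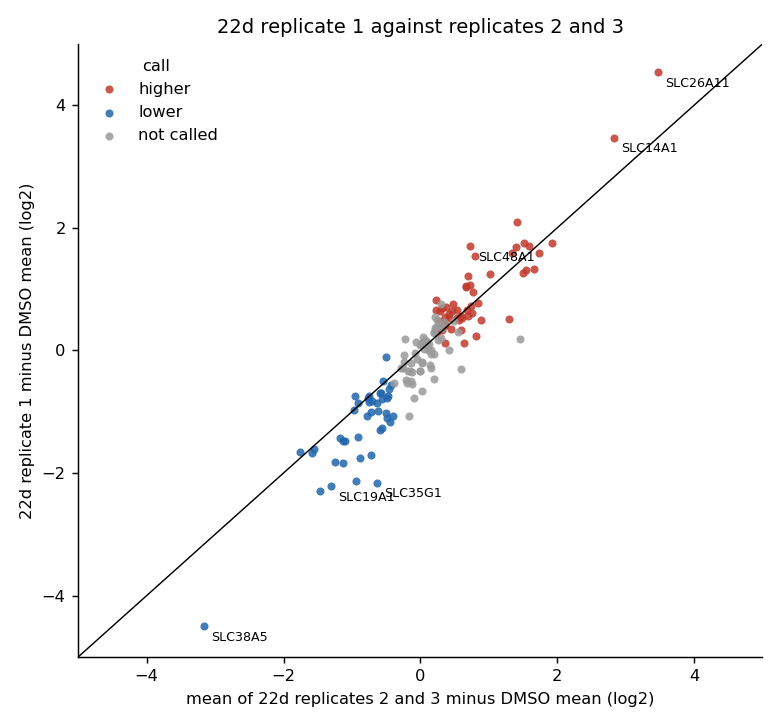
Log2(normalized count + 1) of 22d replicate 1 minus the DMSO mean (y) against that of the mean of 22d replicates 2 and 3 minus the DMSO mean (x) for the 154 members, coloured by call, with a line of equality. SLC38A5, SLC35G1 and SLC19A1 lie lower in replicate 1 than in the other treated libraries, and SLC26A11 and SLC48A1 lie higher.

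Genes that work with these carriers were described from 3 lists. The background for the counts in each list is 28.5% called higher and 29.6% lower over all genes tested. Whether a list differs from it was not tested. Of 33 partners and gradient builders 23 were tested, 8 rose and 7 fell, with a median of 0.13. STK39, a kinase that acts on SLC12 carriers, fell by 0.89 (limma adjusted p = 0.00072). OSTM1, the partner of a lysosomal chloride exchanger, rose by 1.10 (limma adjusted p = 9.9e-06), and PDZK1 by 1.44 (limma adjusted p = 0.025), the last at 6.27 ± 3.66 and 16.6 ± 2.59 normalized counts.

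Of 69 membrane carriers named outside the SLC prefix 51 were tested, 18 rose and 16 fell, with a median of 0.09. The mitochondrial serine carrier SFXN1 fell from 1782, 1599 and 1689 normalized counts to 414, 541 and 458, a fold change of -1.85 (SE 0.12, limma adjusted p = 1.6e-07), and its relative SFXN2 fell by 2.52 (limma adjusted p = 3.6e-07). The lysosomal cholesterol exporter NPC1 rose by 1.30 (limma adjusted p = 7.4e-05), with 2399 in 22d replicate 1 against 1321 and 1340, and SLCO4C1, of the organic anion transporter family, rose by 3.39 from 8.35 ± 5.44 to 93.1 ± 53.7.

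Of 40 genes of amino acid sensing and response 36 were tested, 16 rose and 13 fell, with a median of 0.23. CHAC1, a glutathione-degrading target of ATF4, fell from 189, 253 and 165 normalized counts to 28.4, 42.0 and 44.5, a fold change of -2.37 (SE 0.23, limma adjusted p = 2.9e-06), and the Ragulator subunit LAMTOR2 fell by 0.89 (limma adjusted p = 1.2e-05). DDIT4, an inhibitor of mTORC1, rose from 166, 221 and 150 to 741, 680 and 763, a fold change of 2.03 (SE 0.16, limma adjusted p = 3.8e-07), and RRAGD, a Rag GTPase, rose by 1.33 (limma adjusted p = 0.00018). No list held only genes of 1 direction.

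The members just inside the minimum mean of 50 were SLC14A1 (53.2), SLC22A23 (54.3) and SLC35G1 (55.8), and the SLC rows just outside were SLC12A5 (48.9), SLC5A5 (47.0) and SLC6A9 (46.3). SLC22A23 had 47.8, 64.1 and 27.4 normalized counts under DMSO and 61.6, 58.4 and 66.3 under 22d. SLC6A9, a glycine carrier, had 31.9, 84.8 and 114 with DMSO and 8.80, 16.4 and 21.8 with 22d.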

How the data were processed

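RNA-seq libraries of MV4-11 cells (DMSO 3, 22d 3) were analysed from one deposited table. Per the submitters' processing notes, the authors used FastQC, cutadapt, STAR, HTSeq and DESeq2 with hg38. Not given in the sources used here were versions, annotation release, filters and strand setting. The deposited columns are, per the file headers, each library's normalized signal, their mean, the authors' log2 fold change, its standard error and test statistic as scores, and the p-value with its adjusted value. Each signal value is a read count over its library's size factor: 100% of the values came out as whole reads within 0.001 of a read.

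Log2(value + 1) was fitted with limma-trend (limma 3.58.1, R 4.3.3) on 13297 genes (mean of at least 10), without a block; calls needed an adjusted p (Benjamini-Hochberg) under 0.05. All 154 members passed that filter. The added 1 understates changes of low genes. edgeR 4.0.16 and DESeq2 1.42.0 on the recovered counts, other pseudocounts, filters and scalings, a replicate block and leaving out libraries were alternatives. Scripts were tested on simulated data. Figures used Python 3.11.15 and matplotlib 3.10.9. Exon lengths and places come from GENCODE 29 on GRCh38.

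The members, substrate classes and lists were chosen with earlier results of these data known, and the 8 members that are not carriers were set apart after the table's gene names were seen. The rule for named members took up to 4 called members with the largest rise and 4 with the largest fall per class, a fixed set of much-studied carriers, and 3 rows on each side of the minimum mean; other members are named in counts of a family or class, chosen after their values were seen. Per list of partner genes it took up to 2 called genes in each direction. The correlation of other genes with members that the rule also foresaw was not computed, since the 6 libraries fall into separate groups. Reads are counted once per library, and the number of libraries limits the precision. Some genes are not reported here.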

Additional observations from a re-analysis of the deposited data

How the results depend on the processing

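The members called numbered 55 higher and 42 lower, with 57 and 41 by DESeq2 and 58 and 41 by edgeR on the recovered reads, 53 and 41 in the authors' deposited table, 52 and 42 without a filter on low values, 56 and 42 with a minimum mean of 50 for all genes, 60 and 40 with quantile normalization, and 78 and 37 with library totals. No setting called a member in the opposite direction. Leaving out each library in turn gave 43 to 50 higher, 38 to 42 lower and 6693 to 7445 of all genes, against 7718. Same-numbered libraries of the groups deviated together with r = -0.025, -0.018 and -0.10 across genes, so the numbers were not taken as pairs; with the replicate block 52 members were called higher and 43 lower, SLC38A1 being gained (adjusted p = 0.031), SLC1A4 (0.07) and SLC38A9 (0.087) lost, 51 of the 55 higher calls kept, and 6 amino acid carriers in place of 9 called higher. Over the 72 named members and 16 alternatives, 1081 of 1152 values kept direction and call, 55 lost the call (13 members), 5 gained it (3 members) and 11 changed sign (5 members, none called). The sign changes were SLC12A2 (-0.026) with quantile normalization, SLC16A3 with quantile normalization (0.21) and library totals (0.11), SLC7A6 likewise (0.017 and 0.064), SLC2A1 without 22d replicate 2 (-0.0021), 22d replicate 3 (-0.13) or DMSO replicate 3 (-0.04), with a range of -0.13 to 0.15 over the 6 libraries left out, and SLC39A8 without 22d replicate 2 (-0.076), 22d replicate 3 (-0.02) or DMSO replicate 2 (-0.04), with a range of -0.076 to 0.15. With a minimum mean of 20 for members, 56 were called higher and 46 lower, and with 100, 50 and 39. The causes were not tested. Depth limits the low members: SLC14A1 and SLC26A11 had few reads with DMSO.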

Other observations

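Below the minimum mean, 186 SLC rows outside SLC25 were no members, and 29 of them were tested; 7 were called higher with 22d, 4 lower and 18 not, by limma over all genes tested. Of all 13297 genes tested, 58.0% were called, 28.5% higher and 29.6% lower. The examples that follow were chosen after their values were seen. SLC16A11, of the monocarboxylate carrier family, had 4.55, 7.24 and 3.29 normalized counts under DMSO and 27.4, 32.9 and 36.1 under 22d, a log2 fold change of 2.50 with an SE of 0.39 (limma adjusted p = 0.00013). SLC12A8 had 5.69, 8.27 and 7.68 with DMSO and 41.1, 24.6 and 28.5 with 22d, a log2 fold change of 1.96 (limma adjusted p = 0.0005). SLC2A4 (GLUT4), the insulin-regulated glucose carrier, had 48.9, 30.0 and 45.0 with DMSO and 1.96, 13.7 and 12.6 with 22d, a log2 fold change of -2.30 with an SE of 0.54 (limma adjusted p = 0.0025). The glycine carrier SLC6A9 had a log2 fold change of -2.13 (limma adjusted p = 0.0011). None of these groups overlapped, and the lowest library of SLC2A4 held 2 reads.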
